A study of Caenorhabditis elegans with 6 samples.

Results

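The genes described here build and drive meiotic chromosomes in the germline of Caenorhabditis elegans: the chromosome axis, the meiotic cohesins, the synaptonemal complex, the machinery of homolog pairing, and the formation and repair of the DNA breaks that become crossovers. They were chosen by name, 36 genes in 8 roles, and not by a measured value, though earlier results of these data were known. Of the 36, 35 were among the 18206 genes of the expression table, and the expression of rmh-1 was not analysed here. All 35 were protein-coding and all passed the minimum of a mean of 10 normalized counts, as did 9779 genes in all.

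Germlines were dissected from synchronized young adults of 2 strains raised at 20°C, Bristol N2 (wild-type) and the deletion mutant adr-2(ok735), called adr-2(-), with 3 biological replicates each. ADR-2 is the active adenosine deaminase of the worm, an enzyme that edits adenosine to inosine in double-stranded RNA and that is present in germ nuclei. The comparison asks whether the RNA levels of the meiotic genes differ in germlines without ADR-2, and whether their RNAs are edited. The mutant lacks adr-2 in all tissues, not in the germline alone.

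Meiosis reduces the chromosome set by pairing homologous chromosomes, joining them along their length and exchanging DNA between them before they part. In the worm, germ nuclei move along the gonad from a mitotic zone through pairing, pachytene and oocyte growth, so a dissected adult germline holds all these stages in order. Chromosomes find their partners through special regions called pairing centres, the synaptonemal complex forms between paired axes, and SPO-11 cuts the DNA to start recombination. In bulk RNA, fewer nuclei at a stage and less RNA per nucleus cannot be told apart.

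The libraries held between 33658937 and 96397215 reads on genes, and wild-type replicate 2 was the deepest. A meiotic gene had at least 1038 reads in every library. The deleted gene followed the labels: adr-2 was at 3020, 2822 and 2852 normalized counts in wild-type and at 29.2, 61.0 and 35.6 in adr-2(-) germlines, a log2 fold change of -6.15 with an adjusted p of 5.45e-06 (limma). The adr-2(-) library of replicate 1 stood apart in markers of other tissues. Its 6 body wall muscle markers summed to 17404 normalized counts against 3304 to 5123 in the other adr-2(-) libraries and 3409 to 5067 in wild-type, and its 7 intestine markers to 9620 against 1440 to 1773 and 1300 to 2227. Its 8 cuticle markers summed to 8353 against 1295 to 1898 in the other adr-2(-) libraries and 1049 to 1524 in wild-type. The collagens col-140 (5219) and col-19 (2945) made up most of that sum, while in the same library rol-6 and dpy-7 were at 0 and bli-1 at 1.27. Its gonadal sheath markers summed to 6423 against 2130 to 3133 and 1991 to 3186. Its neuron markers summed to 3921, the lowest of the 6 libraries, but snb-1 alone held 3524 of that. The neuron markers unc-64 (104), egl-3 (81.3), ric-4 (69.8), egl-21 (66.0) and sbt-1 (34.3) were highest in this library. In contrast, rab-3, unc-17 and snb-1 were not. No marker of these lists was at 0 in every library. The part of these tissues in the results below was not tested. The germline label held in every library, with the 12 germline markers summing to 635435 to 674394 normalized counts in wild-type and 589386 to 670911 in adr-2(-). The most abundant of these were cgh-1 and car-1, at means of 225628 and 119155 in wild-type, so the sums weigh these genes most. Of the 12, 8 had lower and 4 higher means in adr-2(-), and 0 were called.

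No meiotic gene passed the test for a change without ADR-2. By limma on log2 normalized counts, with calls at an adjusted p of at most 0.05 and an absolute log2 fold change of at least 0.5, 0 of the 35 were called, where 0.297% of all genes tested were. At an unadjusted p under 0.05, 2 of the 35 passed, beside 12.5% of all genes tested. DESeq2 called 0 of them, where it called 1.31% of its genes, and edgeR called 0, where it called 0.199%. The lowest adjusted p of any meiotic gene was 0.32. Without adr-2(-) replicate 1, the count of calls was again 0.

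A count of 0 can hide changes that were too noisy to call, and here the intervals were narrow. The 95% interval of every one of the 35 fold changes lay inside 0.5 on the log2 scale in either direction, as it did for 52.0% of all genes tested, and 22 of the 35 lay inside 0.25. The lowest bound was -0.41 for chk-2 and the highest was 0.49 for spo-11. Leaving out 1 library at a time left 34 or 35 genes inside 0.5.

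The fold changes were small and more often below 0. Of the 35 genes, 24 had a lower and 11 a higher mean log2 level in adr-2(-). The fold changes ran from -0.18 to 0.27 on the log2 scale, around a median of -0.04. Over all genes tested the median was 0.00, with 48.9% lower. The median of the meiotic genes was -0.03 without adr-2(-) replicate 1 but 0.00 without adr-2(-) replicate 2, and it was -0.01 without wild-type replicate 1, the library in which these genes sat highest. Their median deviation from the mean of the 6 libraries was 0.06 there and between -0.05 and 0.01 in the other libraries. Summed, the 35 genes held 217600, 209386 and 203728 normalized counts in wild-type and at 207459, 203162 and 207853 in adr-2(-). These sums overlap, and the adr-2(-) mean was 98.1% of the wild-type mean.

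**Figure D1:**
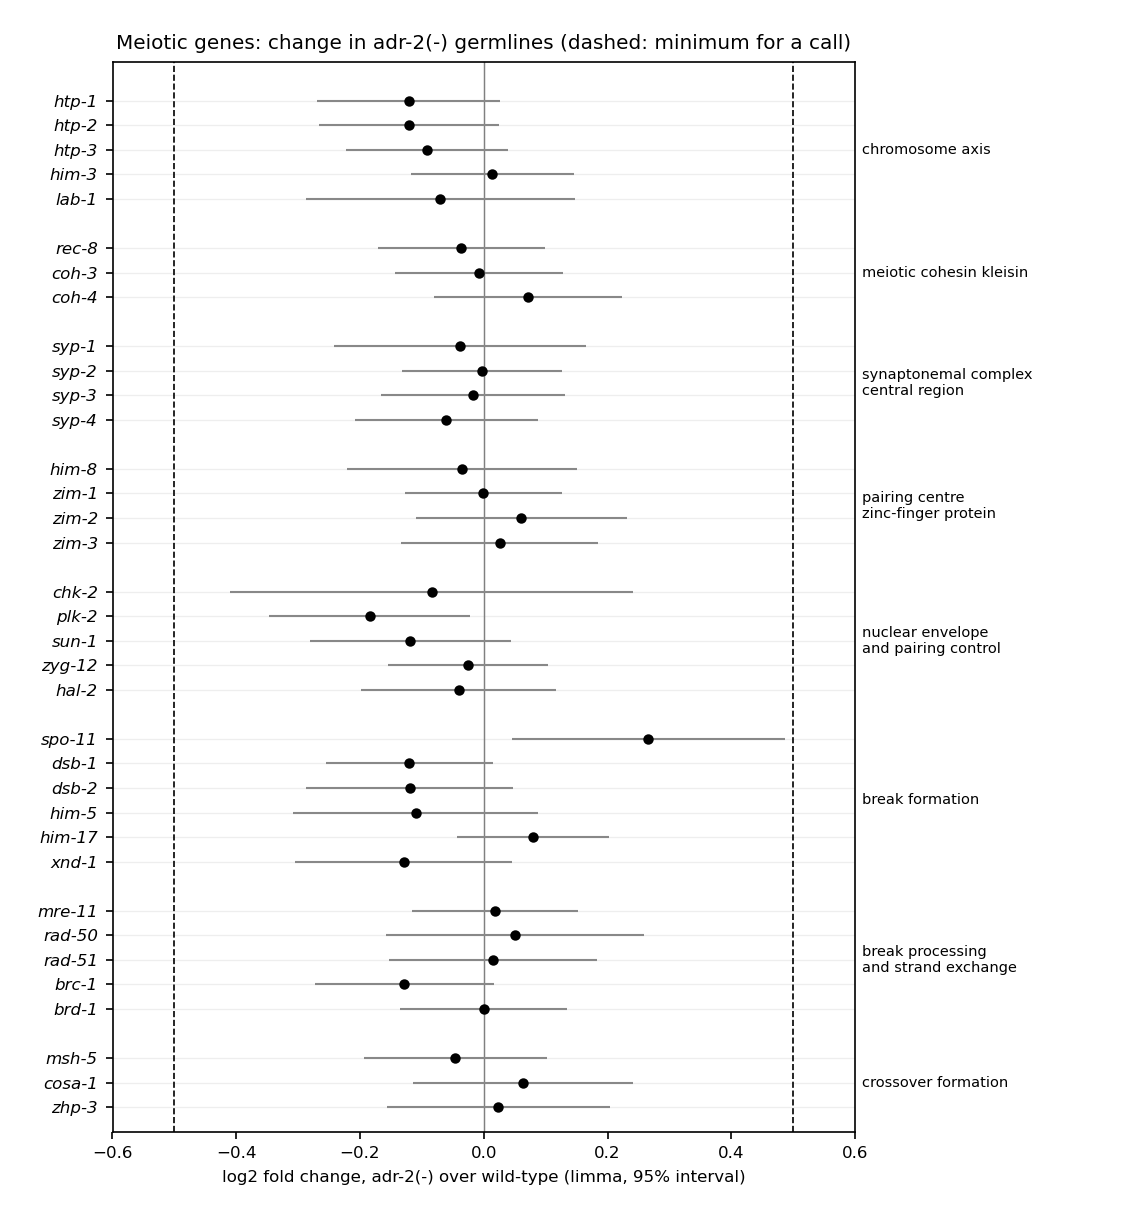
The plot of fold changes shows the log2 fold change of each of the 35 meiotic genes in adr-2(-) over wild-type germlines (x axis) with its 95% interval from limma (horizontal bars), grouped by role, with dashed lines at the minimum of 0.5 for a call. All 35 intervals lie between the dashed lines, and only those of plk-2 and spo-11 leave out 0.

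Replicates of a strain lay close together for these genes. The median SD between replicates, on the log2 scale, was 0.05 in wild-type and 0.07 in adr-2(-), against 0.14 and 0.15 over all genes tested. Much of that gap went with level: the 4024 genes with means in the same range, 1615 to 21985 normalized counts, had median SDs of 0.07 and 0.09. The median absolute log2 fold change was 0.06 for the meiotic genes and 0.08 for those 4024 genes.

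Some genes separated the strains without passing the test. For 4 of the 35 the highest adr-2(-) library was under the lowest of wild-type, beside 9.26% of all genes tested, and for 2 the strains separated the other way, beside 9.5%. Those lower were htp-2, plk-2, dsb-1 and brc-1, and those higher were coh-4 and him-17. For a single gene, an exact permutation test of 3 libraries against 3 cannot give a two-sided p below 0.1, which each of these 6 reached.

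The chromosome axis is the protein core to which sister chromatids are tied, built in the worm from HORMA domain proteins. Of the 5 axis genes measured, 4 had lower means in adr-2(-) and 0 were called. HTP-1 and HTP-2 are near-identical HORMA proteins, and reads of one gene can be counted for the other. htp-1 (IV:5390189-5391557, minus strand, WBcel235) stood at 6820, 6645 and 6005 normalized counts in wild-type and at 5864, 6093 and 5920 in adr-2(-). These groups overlapped, since adr-2(-) replicate 2 exceeded wild-type replicate 3. Its log2 fold change was -0.12 ± 0.07 (SE, n = 3 a strain), with an adjusted p of 0.48 by limma.

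htp-2 (IV:6419522-6420898, plus strand) was at 4139, 4318 and 4070 in wild-type and at 3638, 3878 and 4014 in adr-2(-), so all mutant libraries were lower. Its log2 fold change was -0.12 ± 0.06 (adjusted p = 0.48 by limma). Summed over the pair, which does not depend on how reads were split between them, the libraries held 10960, 10962 and 10075 normalized counts in wild-type and at 9502, 9971 and 9934 in adr-2(-). The sum was 91.9% of wild-type, with every mutant library below (exact permutation test, two-sided p = 0.1, the smallest possible with 3 against 3). The other axis genes were htp-3, which loads first and recruits the rest, at a log2 fold change of -0.09, him-3, a further HORMA protein, at 0.01, and lab-1, which protects cohesion at the first division, at -0.07. For lab-1 the 3 wild-type libraries themselves ran from 1906 to 2424.

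Kleisins close the cohesin ring that holds sister chromatids together, and meiosis uses REC-8 and the near-identical pair COH-3 and COH-4. rec-8 was the most abundant per kilobase of exon, at 3721 ± 98 (SD, n = 3) normalized counts per kilobase in wild-type, against 1799 ± 24 for coh-3 and 1100 ± 41 for coh-4. coh-4 (V:4169912-4175640, minus strand) was at 2284, 2327 and 2163 normalized counts in wild-type and at 2456, 2330 and 2329 in adr-2(-). The mutant libraries were all higher, though the lowest of them (2329) and the highest of wild-type (2327) almost touched. Its log2 fold change was 0.07 ± 0.07 (adjusted p = 0.71 by limma), and coh-3 stood at -0.01. The pair summed to 6043, 6160 and 6017 in wild-type and at 6386, 5983 and 6132 in adr-2(-), groups that overlapped. coh-4 shares 327 bases of the same strand with Y45G5AM.7, so the coh-4 count can hold reads of that gene. Y45G5AM.7 was at a mean of 6191 normalized counts in wild-type, with a log2 fold change of -0.17.

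The central region of the synaptonemal complex is the zipper between paired axes, and SYP-1, SYP-2, SYP-3 and SYP-4 all need each other to build it. All 4 genes had means slightly lower in adr-2(-), with log2 fold changes from -0.06 to -0.00, and 0 were called. syp-4 (I:6847511-6849923, plus strand) had the highest level per kilobase of all 35 genes. It was at 13196, 12327 and 11937 normalized counts in wild-type and at 12667, 11491 and 11758 in adr-2(-), with a log2 fold change of -0.06 ± 0.07 (adjusted p = 0.75 by limma). The strains overlapped. syp-2 varied little in either strain, with an SD of 40 counts on a mean of 3551 in wild-type and of 36 on 3544 in adr-2(-). syp-1 shares 1075 bases of the same strand with the gene F13A7.14, so its count can hold reads of that gene.

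HIM-8 and the ZIM proteins are zinc-finger proteins that bind the pairing centres, HIM-8 that of the X chromosome and the ZIMs those of the autosomes. Their 4 genes lie side by side on one strand of chromosome IV, from 10547086 to 10563974. Gaps of 489 and 475 bases separate zim-2 from zim-3 and zim-3 from him-8, and zim-1 and zim-2 share 267 bases of one strand. Their levels nevertheless differed, from 1656 ± 101 normalized counts per kilobase for zim-2 to 3242 ± 182 for him-8 in wild-type. zim-2 was at 4173, 3828 and 3716 normalized counts in wild-type and at 4096, 3779 and 4352 in adr-2(-), which overlapped. Its log2 fold change of 0.06 ± 0.08 (adjusted p = 0.79 by limma) was the largest in size of these 4 genes. The others were at -0.04 for him-8, -0.00 for zim-1 and 0.03 for zim-3.

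Pairing is driven through the nuclear envelope: CHK-2 is the kinase that starts it, PLK-2 is a polo-like kinase recruited to the pairing centres, and SUN-1 and ZYG-12 form the bridge that links chromosomes to the cytoskeleton. HAL-2 keeps the SYP proteins off unpaired chromosomes. All 5 genes had lower means in adr-2(-), and 0 were called. plk-2 (I:2755540-2758204, minus strand, 6 exons) had the largest decrease of the 35, with 9634, 9397 and 9357 normalized counts in wild-type and at 7675, 9157 and 8218 in adr-2(-). All mutant libraries were lower, replicate 2 by little. The log2 fold change was -0.18 ± 0.07, with a 95% interval of -0.35 to -0.02, an unadjusted p of 0.030 and an adjusted p of 0.34 by limma. Without adr-2(-) replicate 1 it was -0.13.

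sun-1 showed the same order of mutant libraries, at 6845, 6606 and 6359 normalized counts in wild-type and at 5704, 6657 and 5916 in adr-2(-). Replicate 2 was the highest and replicate 1 the lowest. The oocyte markers, genes of the growing oocyte such as rme-2, the yolk receptor, stood in this order too in the mutant. The 9 oocyte markers summed to 364674, 361061 and 418376 normalized counts in wild-type and to 264611, 391154 and 329506 in adr-2(-), and none was at 0. In wild-type the order differed, since replicate 3 was highest for the oocyte markers and lowest for plk-2 and sun-1. All 9 had lower means in adr-2(-), with log2 fold changes from -0.34 to -0.10, and 0 were called. The part of the oocyte share in the plk-2 and sun-1 values was not tested.

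chk-2 (V:19908086-19916023, minus strand, 14 exons) had the lowest level per kilobase of the 35. It was at 2829, 3052 and 2097 normalized counts in wild-type and at 2891, 2323 and 2262 in adr-2(-), so the range of wild-type covered that of adr-2(-). Its log2 fold change was -0.08 ± 0.14 (adjusted p = 0.84 by limma), with the widest interval of the 35, -0.41 to 0.24. zyg-12 was at -0.03 and hal-2 at -0.04.

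SPO-11 is the conserved enzyme that cuts DNA to begin recombination, and DSB-1 and DSB-2 are worm proteins that allow it to act. HIM-5, HIM-17 and XND-1 are needed for normal breaks. Of these 6 genes, 4 had lower and 2 higher means in adr-2(-), and 0 were called. spo-11 (IV:11123133-11124862, minus strand, 7 exons) had the largest fold change of the 35. It was at 3732, 3321 and 3212 normalized counts in wild-type and at 4211, 3589 and 4581 in adr-2(-). Mutant replicates 1 and 3 were above all wild-type libraries, while mutant replicate 2 was below wild-type replicate 1. The log2 fold change was 0.27 ± 0.10, with a 95% interval of 0.04 to 0.49, an unadjusted p of 0.023 and an adjusted p of 0.32 by limma. Without adr-2(-) replicate 1 it was 0.25. In linear terms the mutant mean was 121% of wild-type. The gene shares 23 bases with enpl-1 on the other strand, which stood at a log2 fold change of -0.08.

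dsb-1 (IV:12408925-12410470, plus strand) was at 3561, 3643 and 3490 in wild-type and at 3363, 3197 and 3280 in adr-2(-), with no overlap and a log2 fold change of -0.12 ± 0.06 (adjusted p = 0.45 by limma). dsb-2 stood at -0.12 and him-5 at -0.11, with overlapping groups. him-17 (V:13176711-13180185, plus strand) was at 11225, 10736 and 10807 in wild-type and at 11685, 11475 and 11465 in adr-2(-), all mutant libraries higher, with a log2 fold change of 0.08 ± 0.05 (adjusted p = 0.58 by limma). xnd-1 was at 12697, 11780 and 11773 in wild-type and at 10597, 12321 and 10307 in adr-2(-), a log2 fold change of -0.13. Its mutant replicates 1 and 3 were below every wild-type library.

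Mutant replicate 2 bore on spo-11, plk-2 and xnd-1 by DESeq2. Without that library, DESeq2 gave adjusted p-values of 0.0053 for spo-11 (log2 fold change 0.36), 0.0039 for plk-2 (-0.25) and 0.029 for xnd-1 (-0.21), all under the minimum fold change of 0.5. Limma on the same 5 libraries gave 0.083, 0.085 and 0.15. Leaving out that library also raised the number of all genes past the adjusted p alone by DESeq2 from 310 to 754. This setting was chosen after seeing the data.

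Broken ends are trimmed by MRE-11 and RAD-50, coated by the recombinase RAD-51 and repaired from the homolog or sister, and BRC-1 and BRD-1, the worm forms of BRCA1 and BARD1, act together in that repair. Of the 5 genes, 3 had higher and 2 lower means in adr-2(-), and 0 were called. brc-1 (III:3853102-3862968, minus strand) was at 5418, 5001 and 4841 normalized counts in wild-type and at 4550, 4643 and 4756 in adr-2(-), all mutant libraries lower. Its log2 fold change was -0.13 ± 0.06 (adjusted p = 0.45 by limma). Its partner brd-1 stood at -0.00, with 4426, 4365 and 4140 in wild-type and at 4239, 4258 and 4429 in adr-2(-). rad-50 was at 0.05, mre-11 at 0.02 and rad-51 at 0.02.

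MSH-5, ZHP-3 and COSA-1 mark and mature the few breaks that become crossovers, and RMH-1 works with the BLM helicase at these sites. The 3 genes measured were at log2 fold changes of -0.05 for msh-5, 0.06 for cosa-1 and 0.02 for zhp-3, and 0 were called. cosa-1 (III:2726116-2731670, plus strand) was at 2031, 1729 and 1851 normalized counts in wild-type and at 1964, 1919 and 1966 in adr-2(-), with overlapping groups and an adjusted p of 0.79 by limma. The whole gene lies inside the span of cox-6B on the same strand. cox-6B was at a mean of 10643 normalized counts in wild-type, with a log2 fold change of -0.30. The part of its reads in the cosa-1 count was not tested.

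**Figure D2:**
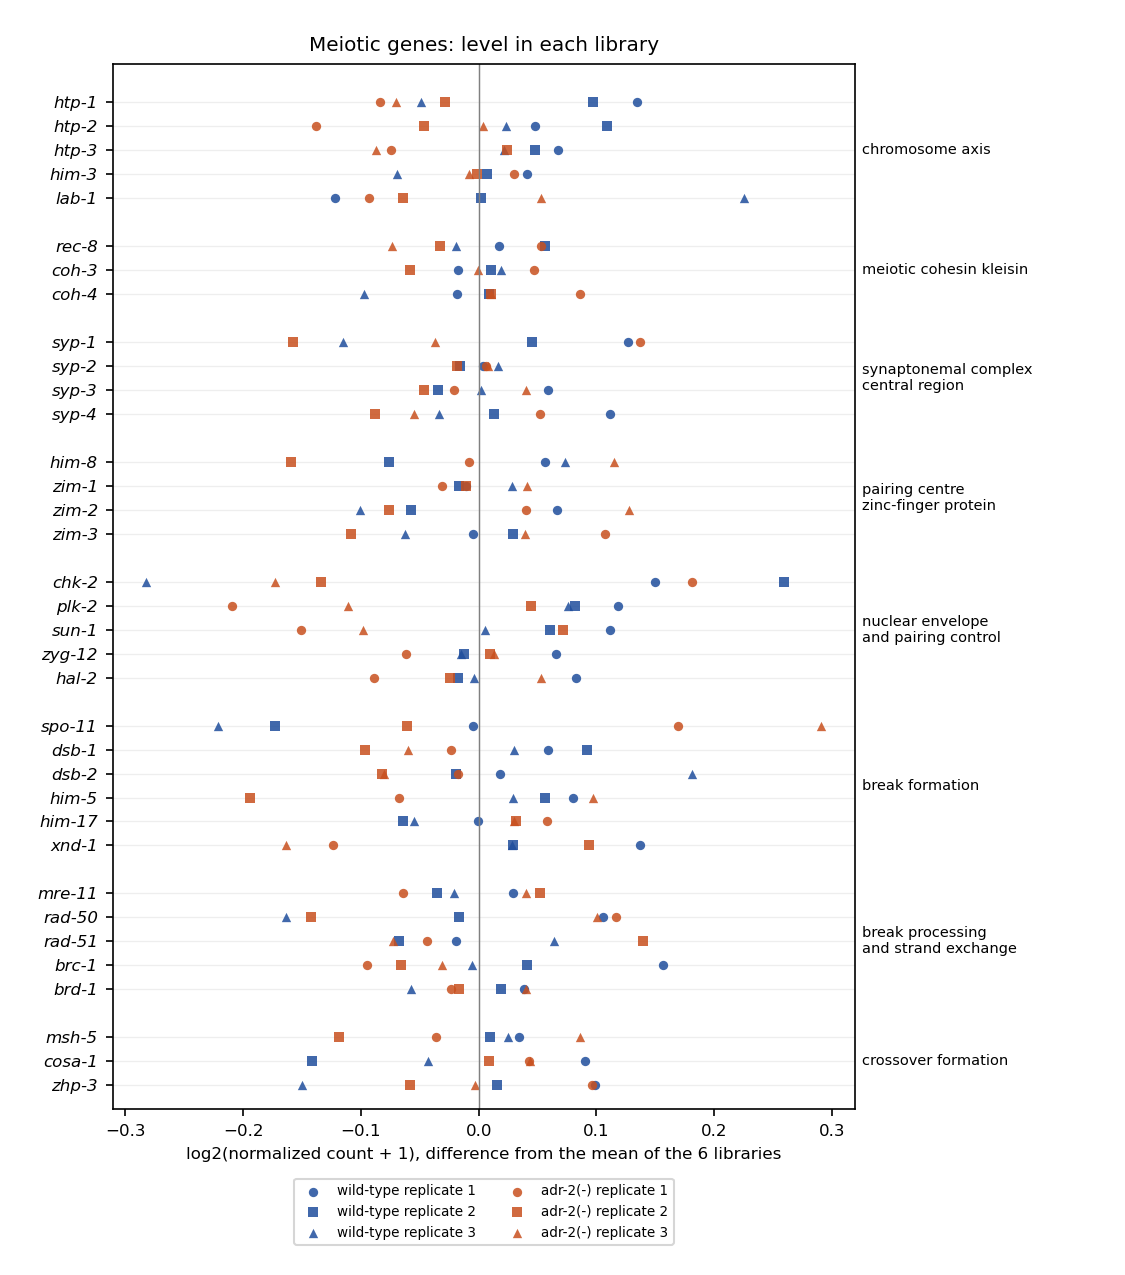
The plot of library levels gives log2(normalized count + 1) of each meiotic gene in each library as its difference from that gene's mean over the 6 libraries (x axis), wild-type in blue and adr-2(-) in orange, with a symbol for each replicate number. Of the 210 points, 164 lie within 0.1 of the mean. The widest rows are chk-2, where a wild-type library is lowest, and spo-11, where adr-2(-) replicate 3 is highest.

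In 13 of the 35 genes the annotated span overlapped another protein-coding gene, and in 7 on the other strand. The libraries were stranded, but the strand setting of the gene counting is not given in the sources used here, so reads of such partners cannot be kept apart with certainty. Of the 7, 6 shared short ends of 17 to 61 bases with their partners, and cosa-1 shared 331 bases with Y71H2AM.12, a gene at a mean of 6.91 normalized counts in wild-type.

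Set on 1 scale, normalized counts per kilobase of exon, the wild-type levels ran from 1050 ± 197 for chk-2 to 6109 ± 315 for syp-4 (SD, n = 3), a ratio of 5.82. The median of the 35 was 2811, against 653 over all genes tested. All 35 lay above the middle of the tested genes, between the percentiles 53.7 and 90.8. After syp-4 came htp-1 at 5281, rad-50 at 5235, xnd-1 at 5215 and him-3 at 5180, whose wild-type libraries overlapped from each to the next. The lowest levels were those of cosa-1 at 1473, him-5 at 1247, coh-4 at 1100 and chk-2. Of the 34 pairs of neighbours in this order, 25 overlapped in their wild-type libraries, so most neighbours cannot be ranked. Levels also spread within a role: the axis ran from 2457 to 5281, the SYP genes from 1978 to 6109 and the break genes from 1247 to 5215.

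**Figure D3:**
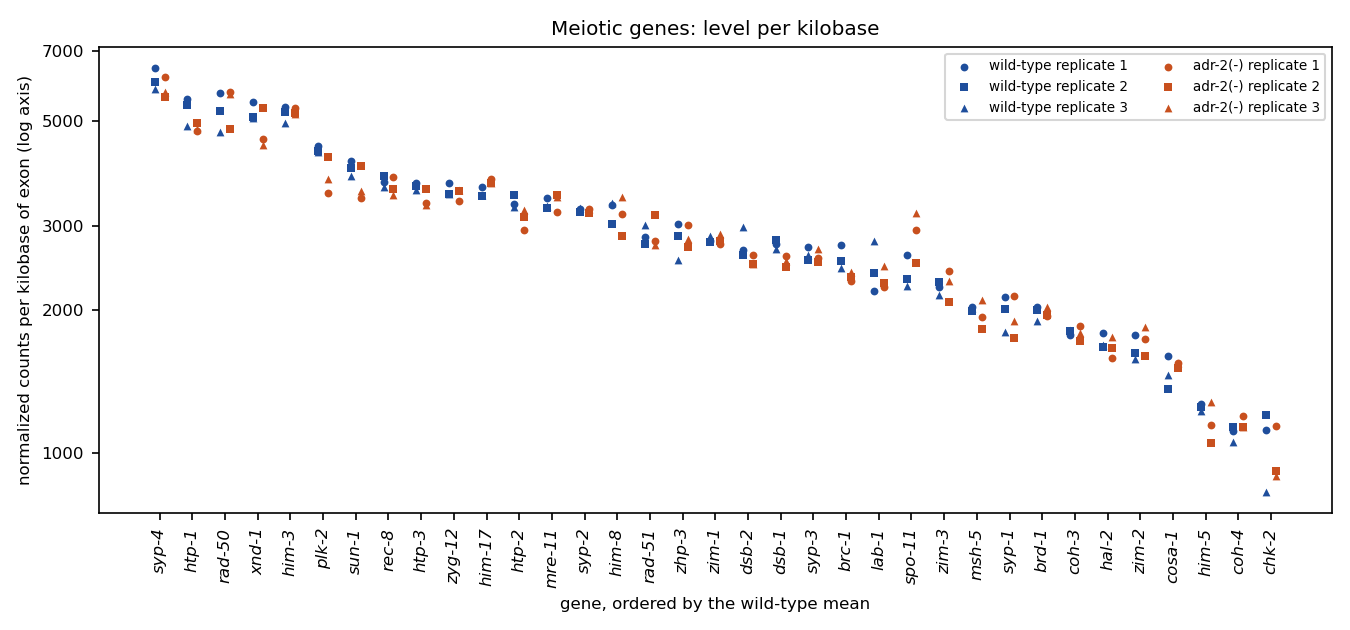
The plot of levels shows normalized counts per kilobase of exon (y axis, log scale) for the 35 meiotic genes in each of the 6 libraries, ordered by the wild-type mean. syp-4 is highest and chk-2 lowest, and the wild-type and adr-2(-) points of a gene lie far closer together than the ends of the order.

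In adr-2(-) germlines, 10 genes had the same rank as in wild-type, and the largest move was of 7 places, by spo-11 from rank 24 to 17. None of the 35 genes lay on the X chromosome, which held 12.2% of all genes tested. Chromosome IV held 12, V held 10, I held 6, III held 5 and II held 2.

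A second list, fixed with the same knowledge, held 59 genes of cohesion, synapsis, repair and checkpoints, all of them tested, of which 25 had higher and 34 lower means and 0 were called by limma, edgeR or DESeq2. Their median log2 fold change was -0.01, and at an unadjusted p under 0.05, 4 passed by limma. Over all genes tested, limma called 0.297%, and 12.5% had an unadjusted p under 0.05. The largest rise was that of skr-1, a component of SCF ubiquitin ligases, at 78.9, 108 and 91.0 normalized counts in wild-type and at 136, 132 and 156 in adr-2(-). All mutant libraries were higher, with a log2 fold change of 0.61 ± 0.22 (adjusted p = 0.31 by limma). Its near-identical neighbour skr-2 had between 9687 and 11897 normalized counts in each library, and reads of the pair may be split between them, so the skr-1 value is uncertain.

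The largest fall was that of chk-1, the kinase that carries the replication and damage checkpoint. It was at 4635, 4992 and 4941 in wild-type and at 3336, 4225 and 3844 in adr-2(-), all mutant libraries lower, with a log2 fold change of -0.36 ± 0.09 (adjusted p = 0.17 by limma). DESeq2 gave an adjusted p of 0.012, with a fold change under the minimum. Its mutant libraries stood in the order of the oocyte markers given with sun-1, and its wild-type libraries did not.

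Editing was read from the lists of positions where reads carried G in place of a genomic A, with a separate list from every wild-type library and a single merged one from adr-2(-). Each position has its read depth, its share of edited reads and a confidence between 0 and 1. In the 36 genes, rmh-1 included, the wild-type lists held 578, 1266 and 613 positions for replicates 1, 2 and 3, and the adr-2(-) list held 1440. Most rested on a single edited read: 88.4%, 76.1% and 82.5% of the wild-type positions, at median depths of 302, 633 and 312 reads, and 76.04% of those of adr-2(-), at a median depth of 722 reads. A confidence of at least 0.75 was reached at 8, 19 and 12 positions in the wild-type replicates and at 6 in adr-2(-).

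No position in the meiotic genes passed as an edited site. A confidence of 0.75 or more was required in each of the 3 wild-type lists, with no listing in adr-2(-). This left 1012 sites in 71 genes over all genes, and 0 in the 36. The expression table held 18206 genes, so with edited genes this few a count of 0 does not set the meiotic genes apart. Asking for 2 wild-type replicates in place of 3 gave 1966 over all genes and again 0. None of the 39 wild-type positions at that confidence was shared by 2 replicates.

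In exons the confident positions were few, shallowly edited and unshared. The wild-type lists held 23, with edited shares from 1.48% to 11.1% at depths of 9 to 472 reads, and 6 of them rested on 1 edited read. The best supported was a coding position of syp-1 (V:16406744) with 13 edited of 462 reads in wild-type replicate 3, or 2.81% (exact 95% interval 1.51 to 4.76). A coding position of zhp-3 (I:8530624) was listed everywhere, at 6 of 233, 3 of 475 and 3 of 220 reads in wild-type and 3 of 501 in adr-2(-). The adr-2(-) list held 4 confident positions that it labels as exons of these genes. Of these, II:14412238, labelled dsb-2, lies past the annotated end of dsb-2 (14412218), in an exon of exl-1 on the other strand. The same list held a position in the 3′ untranslated region of brc-1 (III:3853131) where all 30 of 30 reads carried the change, which no wild-type list held. This strain lacks the editing enzyme, and whether the position is a sequence difference between the strains was not tested. Intervals cover counting error only, since reads are not independent molecules.

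The 16 confident intron positions of the wild-type lists had edited shares from 11.1% to 83.3%, at depths of 5 to 9 reads. Of them, 8 rested on 1 edited read. The adr-2(-) list labels 2 confident positions as intronic, each with 1 edited read. These were IV:10556875 in zim-2 (1 of 11 reads) and IV:5392573, labelled htp-1 (1 of 13 reads). The latter lies outside the annotated htp-1, in an exon of ZK616.5 on the other strand. Positions with at least 2 edited reads were listed in introns of 4 of the 36 genes in wild-type, coh-4, zim-1, msh-5 and cosa-1, and in none in adr-2(-). List by list, 1, 4 and 1 of the 36 genes held such a position for wild-type replicates 1, 2 and 3, and 0 for adr-2(-). Over the whole lists, it was held by 158, 227 and 113 genes for the wild-type replicates and by 45 for adr-2(-). The number of genes with reads in introns is not known, so these counts give no share to set beside the 36. Depth at positions that are not listed is unknown, so the absence from a list can mean no reads as well as no editing. The 4 genes were singled out after their values were seen.

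The densest group lay in coh-4, in the ninth of its 10 introns (V:4170392-4171529, 1138 bases, introns taken as gaps between all annotated exons). Wild-type replicate 2 listed 9 positions there between 4170899 and 4170944, a stretch of 46 bases, at depths of 6 to 9 reads. Edited reads made up 7 of 7 at 4170915 (exact 95% interval 59.0% to 100%), 5 of 7 at 4170916, 4 of 9 at 4170944 and 3 of 9 at 4170938. No other list held a position in this intron, and no other annotated gene covers it on either strand at these positions.

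In msh-5, the seventh of 19 introns (IV:13156596-13157364, 769 bases) held listed positions in 2 wild-type libraries. Replicate 2 listed 5 between 13157198 and 13157245, with 6 of 6 reads edited at 13157232 and 5 of 6 at 13157245 (83.3%, exact 95% interval 35.9% to 99.6%). Replicate 1 listed another, 13157085, with 5 of 5 reads edited. The adr-2(-) list held none in this intron.

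In zim-1, the third of 7 introns (IV:10548467-10554434) is long, at 5968 bases, and also held positions in 2 wild-type libraries. Replicate 3 listed 4 between 10551710 and 10551762, of which 3 had 8 of 8 reads edited (exact 95% interval 63.1% to 100%). Replicate 2 listed 10552267, with 3 of 7 reads edited. In cosa-1, the seventh of 8 introns (III:2729583-2731232) held 2 positions in wild-type replicate 2, with 5 of 5 reads edited at 2729740 and 3 of 5 at 2730670. cosa-1 lies inside an intron of cox-6B on the same strand at both positions, so the RNA can be of either gene.

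The confidence minimum left out the most edited of these positions. In every list, each position at which all reads were edited has a confidence of 0, and this holds for 588, 381 and 444 positions over all genes in wild-type replicates 1, 2 and 3 and for 7 in adr-2(-). In the meiotic genes, 7 such positions lay in the introns just described. Counting these positions as past the minimum raised the sites over all genes from 1012 in 71 genes to 1106 in 79. The meiotic genes stayed at 0, because no position past the minimum or with every read edited was shared between replicates.

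None of the 4 genes with wild-type intron positions of at least 2 edited reads was called by limma. Their log2 fold changes were 0.07 for coh-4, -0.00 for zim-1, -0.05 for msh-5 and 0.06 for cosa-1, given above with their libraries for coh-4 and cosa-1.

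**Figure D4:**
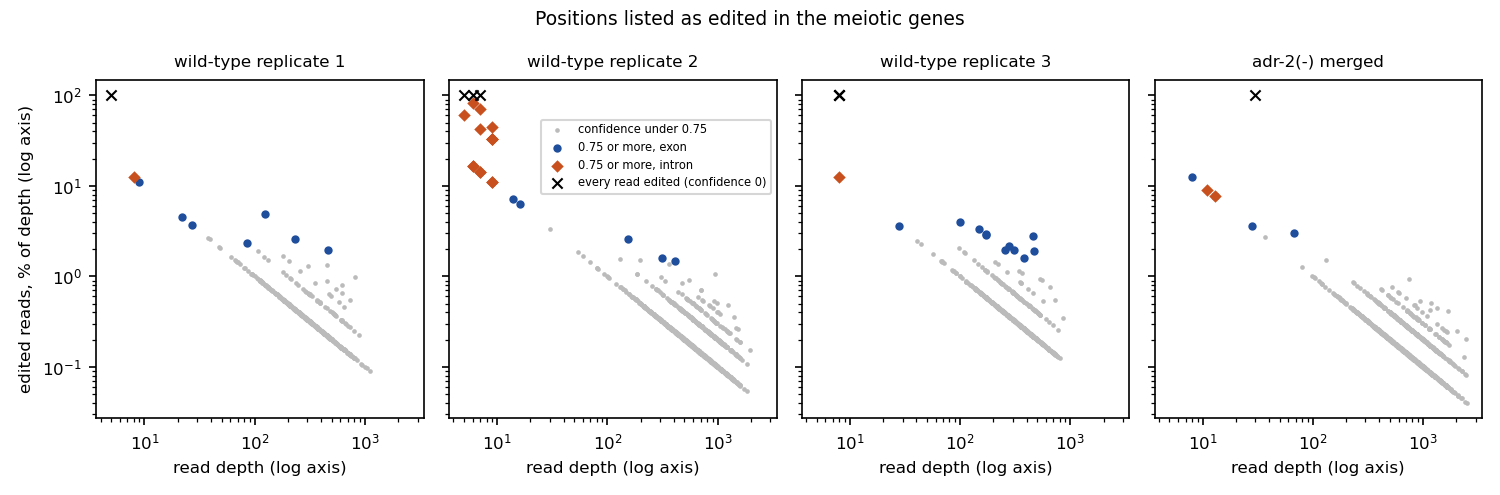
The plot of listed positions sets the share of edited reads (y axis, percent, log scale) against read depth (x axis, log scale) for each position listed in the 36 meiotic genes, with a panel for each list. Grey points are under a confidence of 0.75, blue points are confident exon positions, orange diamonds confident intron positions, and crosses positions with every read edited, whose confidence is 0. Most points lie on the lines of 1 or 2 edited reads, and the diamonds and crosses at the upper left, at depths of 5 to 9 reads, include 14 confident intron positions of wild-type replicate 2.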

How the data were processed

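Poly(A) RNA of dissected germlines was sequenced by the authors in 3 wild-type and 3 adr-2(-) libraries, prepared with a stranded kit and aligned to the WS275 genome with STAR 2.7.10b. The deposited expression values are a signal: gene counts that the authors divided by 1 factor per library. How reads were counted per gene is not given in the sources used here. All values were whole multiples of 1 read (100% within 0.01 reads), so reads were recovered for count tests. Editing positions came from the authors' SAILOR lists, whose deposited confidence is a fraction between 0 and 1. The authors' deposited comparison columns (log2 fold changes, their errors and p-values) were not used.

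Limma 3.58.1 in R 4.3.3, with a mean-variance trend, was run on log2(normalized count + 1) for genes with a mean of at least 10, with Benjamini-Hochberg adjustment over 9779 genes. A fold change on this scale understates that of low genes. Because the values are normalized, limma was the main test as designed, and edgeR 4.0.16 (quasi-likelihood) and DESeq2 1.42.0 on recovered reads were alternatives, with TMM scaling, other pseudocounts and filters, other thresholds, the replicate number as a block and each library left out in turn. The limma, edgeR and DESeq2 fits were tested on simulated counts. Names, positions and exon lengths were taken from Ensembl release 115 (WBcel235), which matched 18196 of 18206 genes. The exact permutation test was two-sided. Tables and figures were made with pandas 2.3.3 under Python 3.11.15, with SciPy 1.17.1, Matplotlib 3.10.9 and NumPy 2.4.6.

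Members and lists were chosen with earlier results of these data known. Values per library were given for genes called, genes whose strains did not overlap, the highest and lowest per kilobase, the largest fold change in each role, and the largest rise and fall among other meiotic genes. Other genes with such values (lab-1, sun-1, xnd-1, brd-1 and the intron positions) were chosen after their values were seen. Of the marker lists, those of the distal mitotic zone and sperm are not described further and had 0 calls.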

Additional observations from a re-analysis of the deposited data

How the results depend on the processing

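The number of meiotic genes called was 0 under every alternative run and with each library left out. In limma on all libraries it was also 0 at an adjusted p of at most 0.1 or with no minimum fold change. By DESeq2 without adr-2(-) replicate 2, spo-11, plk-2 and xnd-1 passed the adjusted p alone, as given above. The number of other meiotic genes called was likewise 0 under the alternatives run for it. The count over all genes moved from 29 to 19 by edgeR and 127 by DESeq2, and to between 8 and 64 with 1 library left out (64 without adr-2(-) replicate 2, and 8, 9 and 16 without wild-type replicates 1, 2 and 3 and 8 without adr-2(-) replicate 3). The causes were not tested.

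The median log2 fold change of the 35 genes ranged from -0.05 (TMM) to -0.03 (edgeR, DESeq2) among the other settings, and from -0.04 to -0.00 with 1 library left out. Of 280 values of single genes under settings that kept all libraries, 4 changed sign, all near 0: TMM gave -0.0036 for him-3 and -0.0024 for rad-51, and edgeR gave 0.0012 for zim-1 and 0.00088 for brd-1. With 1 library left out, 17 genes changed sign, with 0 of these values past the threshold. Their ranges were him-3 -0.017 to 0.038, lab-1 -0.15 to 0.025, coh-3 -0.034 to 0.019, syp-1 -0.12 to 0.031, syp-2 -0.011 to 0.0057, syp-3 -0.042 to 0.0073, him-8 -0.10 to 0.035, zim-1 -0.021 to 0.015, zim-3 -0.022 to 0.086, chk-2 -0.25 to 0.024, zyg-12 -0.039 to 0.00096, mre-11 -0.0030 to 0.055, rad-50 -0.019 to 0.13, rad-51 -0.050 to 0.056, brd-1 -0.029 to 0.019, msh-5 -0.10 to 0.0019, zhp-3 -0.046 to 0.079.

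Whether the replicate numbers pair the samples is not known. In deviations from their strain means, same-numbered libraries correlated at 0.03, -0.22 and 0.38, and not every library correlated best with its own number. Deviations from a mean of 3 libraries depend on each other, so these correlations cannot decide the question. With the replicate block the median of the 35 genes was -0.04, 0 of them were called, and 25 genes were called in all. The log2 fold change of adr-2 stayed between -6.44 and -5.93 with 1 library left out. With the longest transcript as length, no gene moved by more than 3 ranks in level per kilobase. The confident intron positions of wild-type rest on depths of 5 to 9 reads.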
